A study of Homo sapiens with 12 samples.

Results

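The 9 genes described here are NFE2L2, which encodes the transcription factor NRF2, KEAP1, which encodes its main inhibitor, and 7 well-known NRF2 target genes (NQO1, HMOX1, TXNRD1, TXN, SRXN1, ME1 and OSGIN1). They were chosen by name with earlier results of these data known, so counts and medians over them are a description. Each was matched to a gene symbol in the deposited tables, so 9 of 17197 measured symbols are covered. RNA was sequenced from AC16, an established human cell line derived from adult ventricular cells fused with a fibroblast line. Samples crossed 2 siRNAs with 2 states of oxidant exposure, giving 4 groups of 3 libraries. Cells of the siNC group received a negative control siRNA, and cells of the siEP300 group an siRNA against EP300, the gene of the lysine acetyltransferase p300. The siNC.H2O2 and siEP300.H2O2 groups received the same siRNAs and, 12 h after transfection, H2O2 (hydrogen peroxide) for 1 h. Its concentration is given in the labels as 200 mM, and whether that unit is right could not be settled from the files. All groups were transfected with jetPRIME in serum-free medium, and RNA was extracted 48 h after the step that ended with fresh complete medium. In the H2O2 groups that step was the H2O2 exposure. The time from transfection to RNA may therefore differ between the H2O2 states. A treatment field names MLF1 in place of EP300 for the 6 libraries titled siEP300.

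NRF2 is made continuously in most cells and, without stress, is bound by KEAP1, which hands it to a CUL3 ubiquitin ligase for degradation. Oxidants and electrophiles modify cysteines of KEAP1, NRF2 then accumulates, pairs with a small MAF protein and binds antioxidant response elements beside genes of quinone, thioredoxin, glutathione, NADPH and haem metabolism. In heart muscle this pathway is known for its part in the defence against oxidant injury. EP300 is among the coactivators that NRF2 can recruit.

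Estimated counts summed to between 16081437 and 19033679 per library. EP300 stood at 69.1 to 101 CPM (counts scaled to a common library size) in siNC, 36.3 to 36.8 in siEP300, 59.9 to 89.9 in siNC.H2O2 and 26.5 to 30.1 in siEP300.H2O2. It fell with its siRNA, by 1.19 on the log2 scale without and by 1.46 with H2O2 (edgeR adjusted p = 3.6e-06 and 5.85e-07), and MLF1 fell by 0.22 and by 0.29 (edgeR adjusted p = 0.0052 and 0.00069). Of 10 cardiomyocyte markers only NPPB averaged at least 1 FPKM, the contractile genes MYH6, MYH7 and TNNT2 were at or near 0, and all 8 fibroblast markers averaged at least 1 FPKM. Their summed level was 2780 to 2859 FPKM in siNC, 2910 to 2959 in siEP300, 3349 to 3432 in siNC.H2O2 and 2660 to 2849 in siEP300.H2O2. Endothelial markers summed to at most 3.42 FPKM in any library. Epithelial markers (310 to 344, 276 to 281, 475 to 511 and 376 to 435 FPKM in the same order, mostly keratins, with CDH1 at 0.27 or less), leukocyte markers (26.2 to 32.9, 30.75 to 34.05, 38.4 to 39.5 and 49.0 to 56.6 FPKM, mostly CD68, with PTPRC at 0.16 or less) and smooth muscle markers (117 to 124, 148 to 151, 137 to 157 and 169 to 207 FPKM, mostly TAGLN, with MYH11 at 0.11 or less) also moved between groups; their part in the results was not tested. No label tells whether libraries within a group were separate cultures; the spread behind each p-value is that among these libraries and may be technical. Libraries of 1 group also differed along a shared axis, the first component of variation within groups, which held 28.6% of that variance. Its gene loadings followed the transcript length implied by the tables (rank correlation 0.68 across 13171 genes, which are not independent). Scores on it ran from -13.9 (siNC.H2O2 library 7) to 17.6 (siNC library 1), and the 3 siEP300 libraries lay between -3.78 and 4.90.

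The antioxidant response element core TGACNNNGC is shown where it occurs near the members' starts, because this short motif is what the 7 target genes are known to share. RefSeq (GRCh38.p14) gave 11 promoter windows, from 250 bases before to 50 after a start, for 8 of the 9 genes; HMOX1 had no entry. The core was present on either strand in 4 of the 11 windows, belonging to KEAP1, TXNRD1 and ME1, and in 4687 of all 35116 windows (13.3%). The looser form TGANNNNGC, which includes every TGACNNNGC, was in 7 of the 11 windows, of 6 genes, against 41.8% of all windows. Each sequence below reads 5′ to 3′ on the gene's strand, the match is in capitals, and a match on the opposite strand is shown as its reverse complement.
ME1, 137 bases before its start (chr6:83431172-83431196): tcctgccaTGACTCAGCgcttctcg
ME1, 12 bases into the transcript, opposite strand (chr6:83431024-83431048): tgcagtcaGCACCGTCAccccagca
TXNRD1, 99 bases before its upstream start (chr12:104215672-104215696): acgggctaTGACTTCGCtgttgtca
TXNRD1, 102 bases before its downstream start, opposite strand (chr12:104286922-104286946): ggatttctGCTTTGTCAttctgact
KEAP1, 54 bases before its downstream start (chr19:10502809-10502833): ttttattgTGACACGGCgggcgccc
KEAP1, 31 bases before the same start, opposite strand (chr19:10502786-10502810): ccggctctGCTTAGTCAtggtgacc
A further TXNRD1 match lay 8 bases before the upstream start. These matches describe letters in a short window and say nothing about binding. An element outside the window would not be seen, so a gene without a match here may still have one.

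The first question was what EP300 siRNA did to these genes in cells without H2O2. NQO1, ME1 and OSGIN1 rose to between 2.41 and 2.65 times their control level, TXNRD1, TXN and SRXN1 rose to between 1.44 and 1.55 times, and KEAP1 fell to 0.71 times, while NFE2L2 and HMOX1 did not pass the test. All 9 genes passed the filter on low counts. In this comparison 6 of 9 were called higher and 1 lower, where a call is an edgeR adjusted p under 0.05; among all 13171 genes tested 30.1% were called higher and 31.4% lower. Over the 9 genes the median log2 change was 0.57, beside -0.0042 over all genes tested. In bulk RNA a change in the share of cells that make a transcript and a change in its amount per cell cannot be told apart.

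NFE2L2 (chromosome 2, 177227595 to 177392697, minus strand of GRCh38; coordinates here and below from GENCODE 29) encodes NRF2 itself. The annotated gene AC019080.1, on the same strand, shares 17.6% of the exonic bases of NFE2L2. The level of NFE2L2, in CPM, was 139, 135 and 135 in siNC and 141, 129 and 144 in siEP300. The groups overlap, with a log2 fold change of 0.02 ± 0.06 (SE; 95% confidence interval -0.10 to 0.14; edgeR adjusted p = 0.76), whose sign turned with upper-quartile scaling and with FPKM. KEAP1 (chromosome 19, 10486120 to 10503741, minus strand), the adaptor that holds NRF2 for degradation, stood at 63.6, 71.4 and 69.6 CPM in siNC and at 48.1, 47.3 and 50.4 CPM in siEP300. All 3 siEP300 libraries were below all 3 controls, and KEAP1 fell by 0.49 ± 0.06 on the log2 scale (edgeR adjusted p = 1.15e-05). Per length, KEAP1 divided by NFE2L2 (deposited FPKM) was 0.45, 0.51 and 0.50 in siNC and 0.33, 0.36 and 0.34 in siEP300.

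NQO1 (chromosome 16, 69706996 to 69726951, minus strand) encodes a quinone reductase that is the usual readout of NRF2 activity. It stood at 181, 202 and 191 CPM in siNC and at 446, 478 and 459 CPM in siEP300. The lowest siEP300 library was above the highest control, and NQO1 rose by a log2 change of 1.27 ± 0.06 (edgeR adjusted p = 5.96e-10). The antisense gene AC092115.2 shares 17.7% of the exonic bases of NQO1, and the strand setting of the counting was not given. HMOX1 (chromosome 22, 35380361 to 35394214, plus strand) encodes the inducible haem oxygenase, which breaks down haem. Its level was 28.7, 32.7 and 31.2 CPM in siNC and 33.8, 31.1 and 32.65 CPM in siEP300. These ranges overlap, and the log2 fold change was 0.08 ± 0.08 (95% confidence interval -0.10 to 0.25; edgeR adjusted p = 0.44), so a rise of the size of that of NQO1 lies outside the interval. NQO1 divided by HMOX1 per length was 3.58, 3.53 and 3.47 in siNC and 7.49, 8.70 and 7.97 in siEP300.

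**Figure D1:**
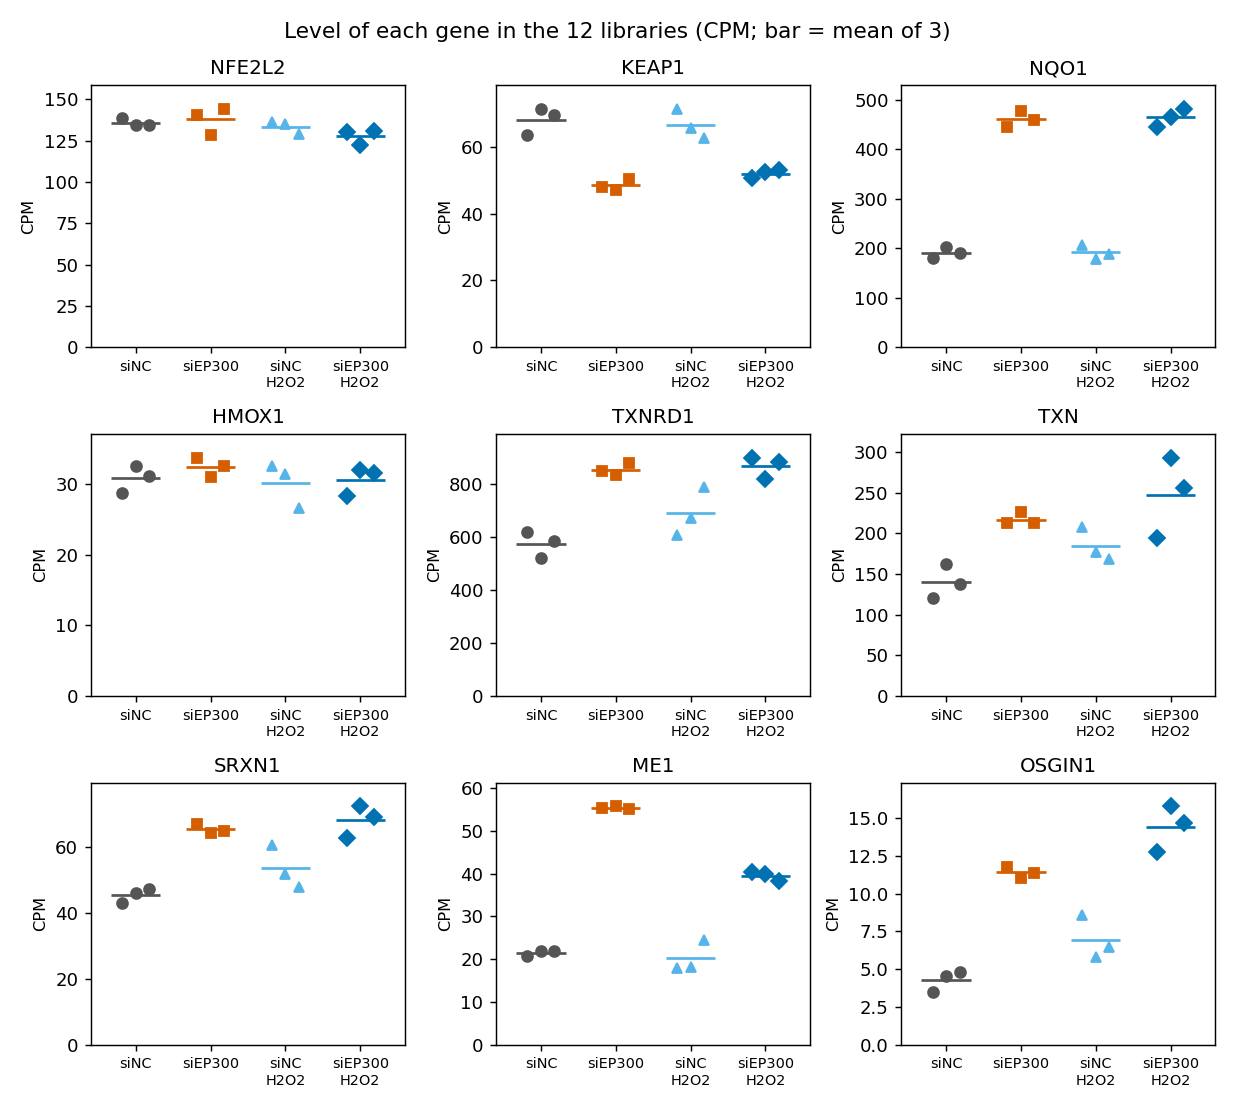
Level of each of the 9 genes in CPM (vertical axis, from 0) in the 4 groups of 3 libraries; points are libraries, in the order of their numbers, and bars are group means. NQO1, TXNRD1, SRXN1, ME1 and OSGIN1 stood higher in every EP300 siRNA library than in the control siRNA libraries of the same H2O2 state and KEAP1 lower, while NFE2L2 and HMOX1 overlapped between the untreated groups.

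The thioredoxin arm passes electrons from NADPH to oxidised proteins and peroxiredoxins. TXNRD1 (chromosome 12, 104215779 to 104350305, plus strand), the cytosolic thioredoxin reductase, stood at 618, 522 and 585 CPM in siNC and at 849, 832 and 877 CPM in siEP300. TXN (chromosome 9, 110243811 to 110256640, minus strand), thioredoxin itself, stood at 121, 162 and 138 CPM in siNC and at 213, 226 and 212 CPM in siEP300. Neither pair of groups overlapped: TXNRD1 rose by 0.57 ± 0.08 and TXN by 0.63 ± 0.13 on the log2 scale (edgeR adjusted p = 3.34e-05 and 0.00065). SRXN1 (chromosome 20, 646615 to 653370, minus strand), the sulfiredoxin that repairs overoxidised peroxiredoxins, stood at 43.1, 46.0 and 47.2 CPM in siNC and at 67.1, 64.1 and 64.7 CPM in siEP300. Its groups were apart as well (log2 fold change 0.52 ± 0.08, edgeR adjusted p = 5.53e-05). An annotated readthrough gene on the same strand, AL121758.1, shares 85.0% of the exonic bases of SRXN1, and how such reads were assigned is not given in the sources used here.

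ME1 (chromosome 6, 83210389 to 83431071, minus strand) is the cytosolic malic enzyme, which makes NADPH. Its libraries were even within both untreated groups. It stood at 20.7, 22.0 and 21.9 CPM in siNC and at 55.3, 55.7 and 55.1 CPM in siEP300, and rose by 1.36 ± 0.09 on the log2 scale (edgeR adjusted p = 9.74e-09). OSGIN1 (chromosome 16, 83948282 to 83966332, plus strand), an oxidative stress-induced growth inhibitor, was the scarcest member. It stood at 3.48, 4.58 and 4.82 CPM in siNC and at 11.8, 11.05 and 11.4 CPM in siEP300. The groups were far apart relative to their spread, with a log2 change of 1.41 ± 0.15 (edgeR adjusted p = 1.34e-06). Its counts were 66 to 91 reads per siNC library, and 13.9% of its exonic bases are shared with the annotated gene AC009119.2.

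The second comparison asked the same in cells that had been exposed to H2O2. The same 6 genes were called higher and KEAP1 lower, and NFE2L2 and HMOX1 again did not pass; among all genes tested 28.4% were called higher and 30.6% lower. The median over the 9 genes was 0.35, beside -0.0186 over all genes tested. KEAP1 stood at 71.5, 65.8 and 62.9 CPM in siNC.H2O2 and at 50.8, 52.4 and 53.1 CPM in siEP300.H2O2, and fell by 0.36 ± 0.06 on the log2 scale (edgeR adjusted p = 0.00023). NQO1 rose from 207, 178 and 189 CPM to 445, 467 and 482 CPM, by 1.28 ± 0.06 on the log2 scale (edgeR adjusted p = 4.97e-10). Both sets of libraries were apart for these genes.

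ME1 stood at 17.9, 18.3 and 24.4 CPM in siNC.H2O2 and at 40.5, 39.8 and 38.3 CPM in siEP300.H2O2 (log2 fold change 0.96 ± 0.09, edgeR adjusted p = 4.88e-07). OSGIN1 stood at 8.62, 5.78 and 6.50 CPM and at 12.7, 15.8 and 14.7 CPM (1.04 ± 0.14, edgeR adjusted p = 1.32e-05). In both genes the highest control library, 9 for ME1 and 7 for OSGIN1, was below every EP300 siRNA library. SRXN1 stood at 60.7, 51.9 and 47.9 CPM and at 62.8, 72.3 and 69.0 CPM (0.35 ± 0.08, edgeR adjusted p = 0.0018), and TXNRD1 at 608, 672 and 787 CPM and at 899, 818 and 882 CPM (0.33 ± 0.08, edgeR adjusted p = 0.0032). These groups were apart by a narrow margin, 60.7 against 62.8 CPM for SRXN1 and 787 against 818 CPM for TXNRD1.

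TXN was the only member whose call in this comparison was lost when 1 library was left out. It stood at 208, 177 and 169 CPM in siNC.H2O2 and at 194, 293 and 255 CPM in siEP300.H2O2, so library 10 lay inside the control range and library 11 was the highest of the 12. The log2 fold change was 0.42 ± 0.13 (edgeR adjusted p = 0.010), and without library 11 it was 0.29 with an edgeR adjusted p of 0.064. NFE2L2 stood at 137, 135 and 129 CPM in siNC.H2O2 and at 130.2, 122 and 131 CPM in siEP300.H2O2; the difference was -0.06 on the log2 scale (95% confidence interval -0.18 to 0.06, edgeR adjusted p = 0.34). HMOX1 stood at 32.6, 31.4 and 26.6 CPM and at 28.4, 32.0 and 31.6 CPM, with a difference of 0.02 (95% confidence interval -0.16 to 0.20, edgeR adjusted p = 0.83). Both genes overlapped between these groups, and the sign of the HMOX1 value turned with upper-quartile scaling.

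**Figure D2:**
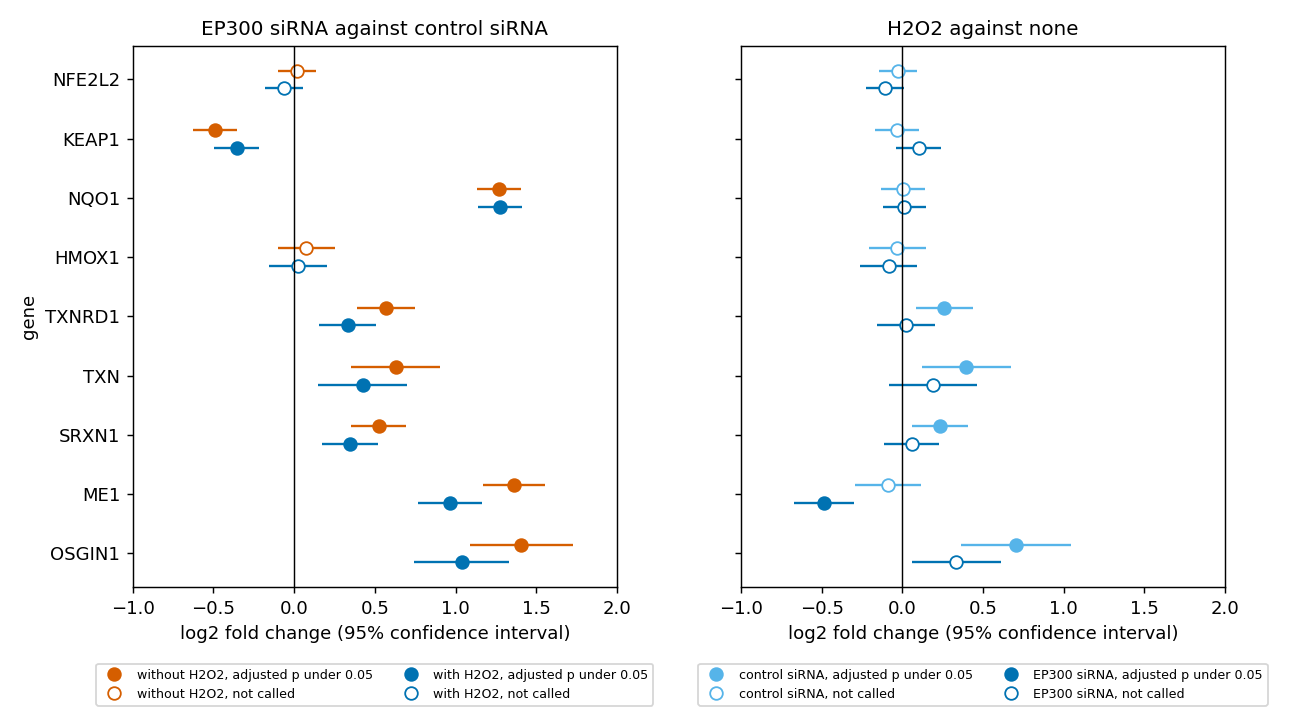
Log2 fold changes of the 9 genes (horizontal axis) with 95% confidence intervals from the edgeR fit; EP300 siRNA against control siRNA on the left, H2O2 against none on the right. Filled points passed an adjusted p of 0.05: 7 genes in each EP300 siRNA comparison, TXNRD1, TXN, SRXN1 and OSGIN1 for H2O2 with control siRNA, and ME1 for H2O2 with EP300 siRNA.

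The third comparison asked what H2O2 had left in cells with control siRNA by the time of RNA isolation. Here, with EP300 siRNA and in the interaction, H2O2 cannot be told apart from time since transfection if that differed. OSGIN1 rose to 1.63 times its untreated level, and TXN, TXNRD1 and SRXN1 rose to 1.32, 1.20 and 1.18 times. NQO1, ME1, HMOX1, KEAP1 and NFE2L2 did not pass. In all 4 of 9 genes were called higher and 0 lower (0 also at an unadjusted p under 0.05 and with DESeq2), against 17.8% and 17.4% of all genes tested. The OSGIN1 libraries did not overlap (highest untreated 4.82, lowest treated 5.78 CPM), and its log2 fold change was 0.70 ± 0.16 (edgeR adjusted p = 0.0032).

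The other 3 calls were smaller and depended on libraries and scaling. TXN rose by a log2 change of 0.40 ± 0.13 (edgeR adjusted p = 0.027), with an untreated maximum of 162 and a treated minimum of 169 CPM. TXNRD1 rose by 0.26 ± 0.08 (edgeR adjusted p = 0.025), although treated library 7 at 608 CPM lay below untreated library 1 at 618 CPM. SRXN1 rose by 0.24 ± 0.08 (edgeR adjusted p = 0.036), with 47.2 CPM as the untreated maximum and 47.9 CPM as the treated minimum. Leaving out 1 library ended the TXNRD1 call for libraries 2, 3 and 9 (0.15 without library 9, edgeR adjusted p = 0.12). It ended the TXN call for libraries 1, 3 and 7, and the SRXN1 call for libraries 1, 2, 3, 7 and 8. The change was no smaller than reported for TXNRD1 without library 3 (0.27, edgeR adjusted p = 0.058). The same held for SRXN1 without library 2, 3 or 8 (0.24, 0.26 and 0.26, edgeR adjusted p = 0.066, 0.052 and 0.059). Those fits had fewer libraries and narrowly missed the threshold. Without siNC library 1 and siNC.H2O2 library 7 together, the ends of the within-group axis, TXN was at 0.21 (edgeR adjusted p = 0.21) and SRXN1 at 0.10 (edgeR adjusted p = 0.33). OSGIN1 was at 0.39 in that fit and stayed called (edgeR adjusted p = 0.0498), as it did in all 21 alternatives. Under upper-quartile scaling, and with FPKM, only OSGIN1 of the 9 genes was called higher. Those settings also moved the balance of all calls, from 2349 higher and 2298 lower to 1784 and 3071 with upper-quartile scaling and to 1621 and 3276 with FPKM (pseudocount 1).

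For the members not called, the intervals were narrow. NQO1 had a log2 fold change of 0.0026 with H2O2 (95% confidence interval -0.13 to 0.14, edgeR adjusted p = 0.98), HMOX1 one of -0.03 (-0.21 to 0.15, edgeR adjusted p = 0.80) and KEAP1 one of -0.03 (-0.17 to 0.10, edgeR adjusted p = 0.74). NFE2L2 was at -0.03 (-0.14 to 0.09, edgeR adjusted p = 0.75). The sign of NQO1 turned with upper-quartile scaling and with FPKM. ME1 was at -0.09 (-0.29 to 0.12, edgeR adjusted p = 0.52). Its siNC.H2O2 libraries 7 and 8, at 17.9 and 18.3 CPM, lay below every untreated one and library 9, at 24.4 CPM, above; without library 9 ME1 was at -0.25 and was called lower (edgeR adjusted p = 0.012).

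With EP300 siRNA, the comparison of H2O2 with none called ME1 alone. ME1 fell from 55.3, 55.7 and 55.1 CPM to 40.5, 39.8 and 38.3 CPM, to 0.71 times its level, with no overlap. Its log2 fold change was -0.49 ± 0.09 (edgeR adjusted p = 0.00064). It was the only one of the 9 genes called lower, and 0 were called higher (1 at an unadjusted p under 0.05, OSGIN1; 0 with DESeq2). Among all genes tested 15.9% were called higher and 15.1% lower.

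OSGIN1 was higher in all 3 treated libraries, at 12.7 CPM or more against 11.8 CPM or less, but missed the threshold (log2 fold change 0.33 ± 0.13, edgeR adjusted p = 0.062). It passed in 6 of 21 alternative fits. Among them were those without library 1 or 7 (edgeR adjusted p = 0.038 and 0.027), which are in neither group compared. The OSGIN1 change stayed at 0.33 in both, as those libraries enter only through shared scaling and spread. Without siEP300.H2O2 library 10 it was 0.41 (edgeR adjusted p = 0.036). TXN was at 0.19 ± 0.13 (edgeR adjusted p = 0.28) and was called higher without siEP300.H2O2 library 10, at 0.34 (edgeR adjusted p = 0.031). The remaining 6 genes had log2 fold changes between -0.11 and 0.10 and none passed: NFE2L2 had the lowest (-0.11, 95% confidence interval -0.23 to 0.0084) and KEAP1 the highest (0.10, -0.04 to 0.24). Each library enters 1 comparison of H2O2 and 1 of EP300 siRNA, so the comparisons are not independent of each other.

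The interaction (the effect of EP300 siRNA in H2O2-treated cells, less its effect in untreated cells) tested whether the siRNA effect differed between the H2O2 states. None of the 9 genes passed with edgeR (1 at an unadjusted p under 0.05, ME1; 0 with DESeq2), and 1.12% of all genes tested were called higher and 2.21% lower. With FPKM (pseudocount 1) the calls over all genes were 325 higher and 229 lower, in place of 148 and 291. ME1 had the largest difference, -0.40 ± 0.13 (95% confidence interval -0.67 to -0.12, edgeR adjusted p = 0.12), followed by OSGIN1 (-0.37 ± 0.21, edgeR adjusted p = 0.40). With the within-group axis in the fit, ME1 (-0.40, edgeR adjusted p = 0.016) and TXNRD1 (-0.23, edgeR adjusted p = 0.032) passed the threshold. Their values hardly moved (TXNRD1 was at -0.24 as reported). The axis was estimated from the spread within groups of these same libraries, so smaller p-values with it are built in. Without libraries 1 and 7 together both genes also passed (ME1 -0.46, TXNRD1 -0.38, edgeR adjusted p = 0.021 and 0.014). Leaving out library 7 alone put ME1 at -0.48 (edgeR adjusted p = 0.036). NQO1 was at 0.0091 (95% confidence interval -0.18 to 0.20, edgeR adjusted p = 0.98), a sign that turned in 5 alternatives, each of which left out 1 library.

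**Figure D3:**
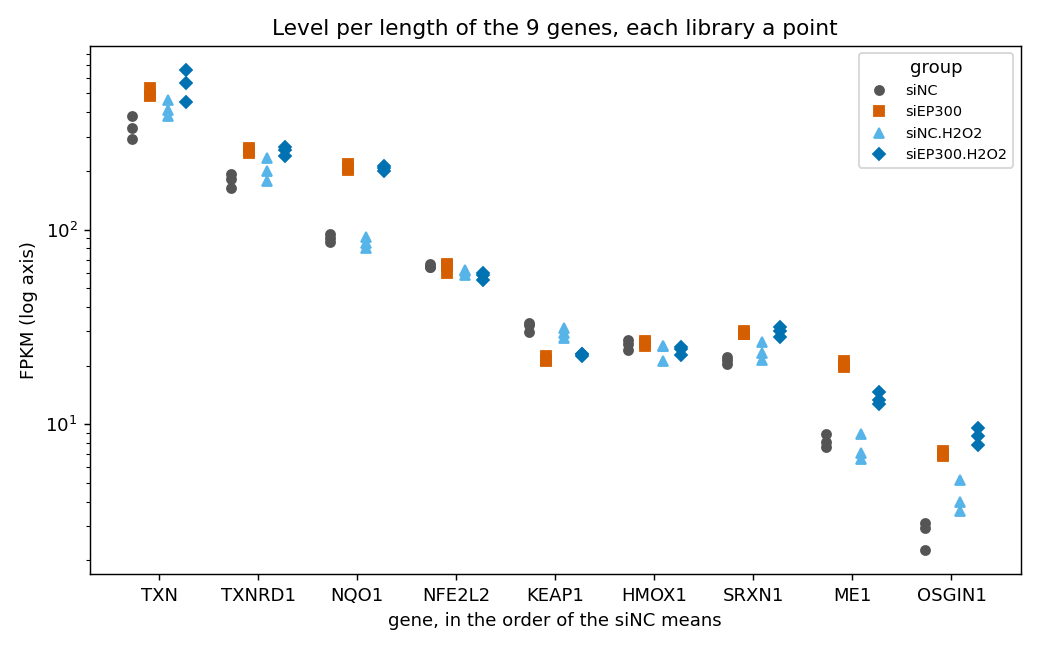
FPKM of the 9 genes (vertical log axis), ordered by their siNC means, with each library a point and each group a colour and marker. TXN stands at the top and OSGIN1 at the bottom of every group, and KEAP1 stands above SRXN1 in control siRNA libraries and below it in EP300 siRNA libraries.

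Levels were compared between genes on the FPKM scale, which divides by length. In siNC the order was TXN (335 ± 44.0 FPKM; SD, n = 3), TXNRD1 (180 ± 15.7), NQO1 (90.4 ± 4.47), NFE2L2 (65.2 ± 1.34), KEAP1 (31.7 ± 1.72), HMOX1 (25.7 ± 1.46), SRXN1 (21.3 ± 0.90), ME1 (8.21 ± 0.65) and OSGIN1 (2.76 ± 0.45). No 2 neighbours in this order overlapped between their libraries. In siEP300 the first 4 places were the same, and KEAP1, at 21.7 ± 0.69 FPKM, dropped from the fifth place to the seventh, behind SRXN1 (29.3 ± 0.58) and HMOX1 (26.0 ± 0.91). NQO1, at 209 ± 8.33 FPKM, came closer to TXNRD1 at 254 ± 6.51, and ME1 at 20.3 ± 0.74 closer to KEAP1; again no neighbours overlapped.

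With H2O2 the order within each siRNA was unchanged. HMOX1 and SRXN1 overlapped in siNC.H2O2 (21.0 to 25.3 and 21.3 to 26.5 FPKM), so their order there is within the spread. HMOX1 and KEAP1 overlapped in siEP300.H2O2 (22.5 to 25.0 and 22.4 to 22.9 FPKM). The ratio of KEAP1 to NFE2L2 was 0.51, 0.47 and 0.47 in siNC.H2O2 and 0.38, 0.41 and 0.39 in siEP300.H2O2, so all 6 EP300 siRNA libraries lay below all 6 control siRNA libraries. The ratio of NQO1 to HMOX1 was 3.62, 3.21 and 4.04 in siNC.H2O2 and 8.87, 8.27 and 8.67 in siEP300.H2O2, and the ranges of the siRNAs were again apart.

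The spread of TXN, as SD over mean CPM of 3 libraries, was 14.7% for siNC and 3.53% for siEP300, and with H2O2 11.2% and 20.3%. That of NFE2L2 was 1.67% and 6.0%, and with H2O2 3.15% and 3.65%, so it was lower than that of TXN in 3 groups and higher in siEP300. Along the within-group axis TXN and OSGIN1, with loadings at the 2.02nd and 2.08th percentile of all genes, lay below their group means in libraries 1, 9 and 10, which had the highest scores, and TXNRD1, at the 84.1st percentile, above. In siNC library 1 (axis score 17.6) TXN was 0.20 below and TXNRD1 0.11 above its group mean in log2 CPM. In siEP300.H2O2 library 10 (score 15.8) TXN was 0.33 below its group mean. The ratio of TXN to TXNRD1 per length ran from 1.51 to 2.34 within siNC, from 1.65 to 2.61 within siNC.H2O2 and from 1.70 to 2.76 within siEP300.H2O2, but only from 1.88 to 2.14 within siEP300. The lengths implied by the tables were 433 bases for TXN, the shortest of the 9, and 3336 for TXNRD1, the longest. The axis was computed after subtracting group means. As a covariate it takes up spread within groups and can move differences between groups only a little. With it the EP300 siRNA effects stayed on the same side of the threshold for all 9 genes in both H2O2 states. For that reason this is no test of the axis, whose part in the EP300 siRNA and H2O2 results was not tested further.

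**Figure D4:**
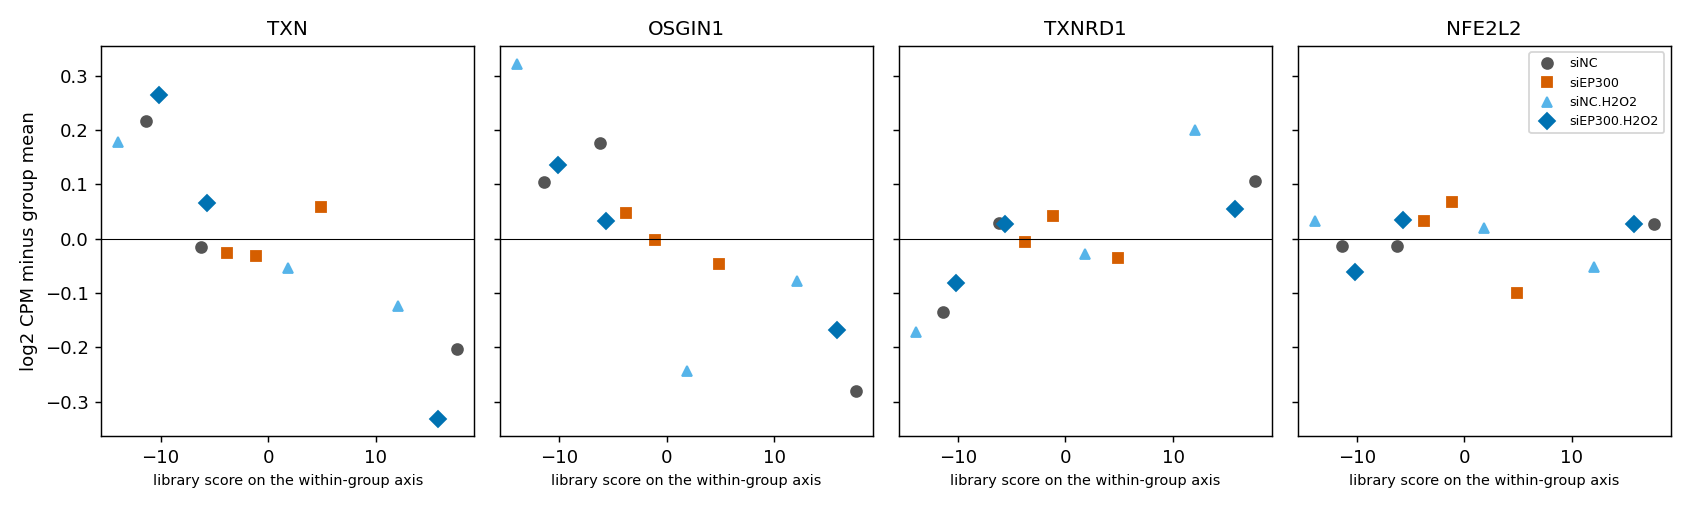
Log2 CPM minus the group mean (vertical axis) of TXN, OSGIN1, TXNRD1 and NFE2L2 against the library's score on the within-group axis (horizontal axis), 12 libraries in 4 groups. TXN falls from 0.27 above its group mean at a score of -10.1 to 0.33 below it at 15.8, TXNRD1 runs the other way, and NFE2L2 stays within 0.10 of its group mean.

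Genes with the most similar profile were found by the root-mean-square distance between log2 CPM profiles over the 12 libraries, each centred on its own mean, over 9744 genes averaging 5 CPM or more (9745 for KEAP1). Nearest to NQO1 were UCHL1 (0.053), ZDHHC18 (0.081) and FICD (0.088), beside a median distance of 0.65. Nearest to KEAP1 were HDAC10 (0.043), COPS6 (0.048) and SYDE1 (0.049), median 0.30, and nearest to TXNRD1 were MICAL2 (0.051), IPO7 (0.053) and NUMB (0.056), median 0.32. ME1 was nearest to NTN4 (0.12) and TMX3 (0.12), SRXN1 to MCTS1 (0.051) and TEAD4 (0.053), OSGIN1 to TPM2 (0.13), TXN to MYL9 (0.11), NFE2L2 to DBF4B (0.042) and HMOX1 to CDCA3 (0.052). None of these is among the 9 members. Between members the smallest distance was that of NFE2L2 and HMOX1 (0.095), followed by TXN and SRXN1 (0.14), TXNRD1 and SRXN1 (0.18), NFE2L2 and KEAP1 (0.22), HMOX1 and SRXN1 (0.22) and NQO1 and ME1 (0.23). The profiles share depth and scaling, so small distances among genes with little change are common.

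**Figure D5:**
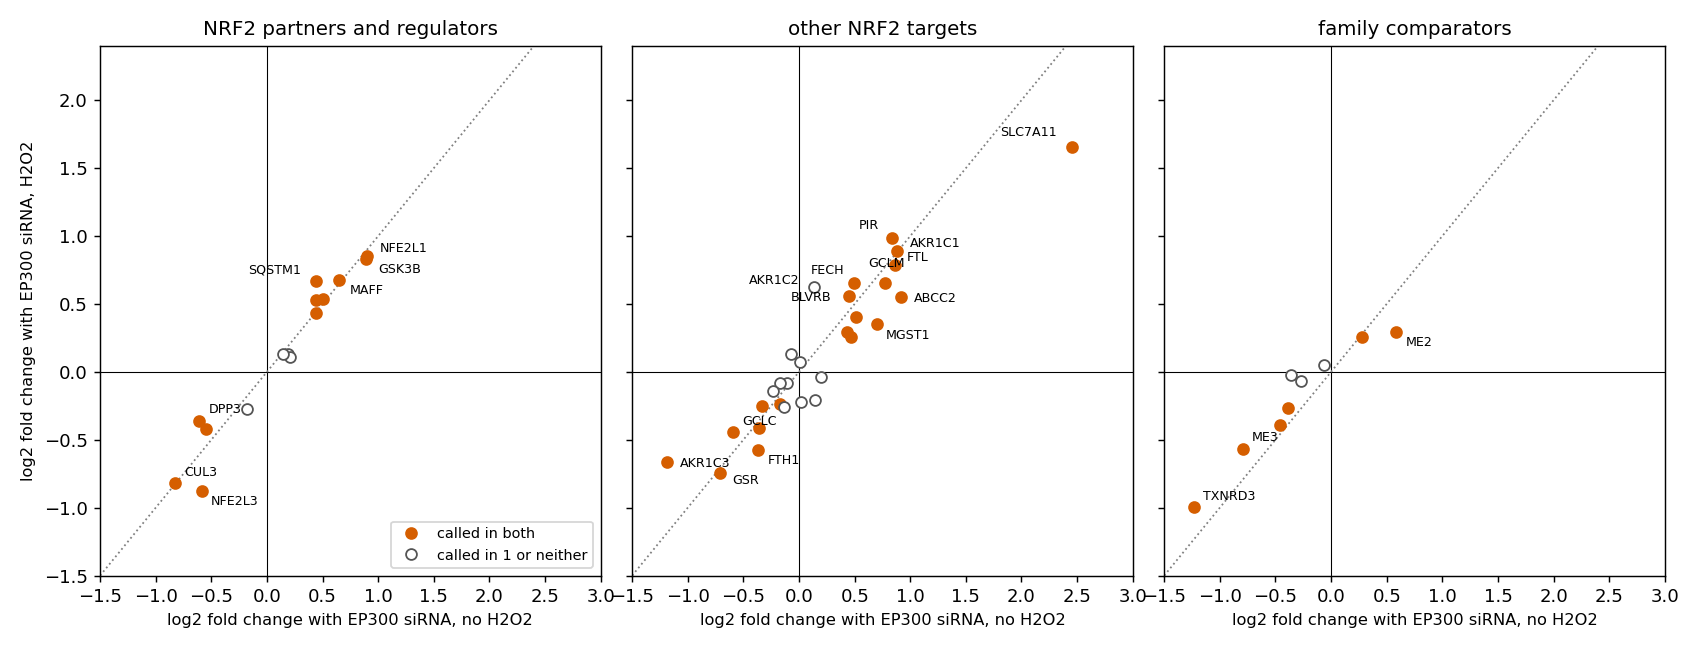
Log2 fold change with EP300 siRNA without H2O2 (horizontal axis) and with H2O2 (vertical axis). Genes are 15 NRF2 partners and regulators, 29 other NRF2 targets and 9 comparators, which are relatives of the members and TXNIP. Filled points passed an adjusted p of 0.05 in both, and the dotted line marks equal change. SLC7A11 lies at 2.46 and 1.66, CUL3 at -0.83 and -0.82, and GSR at -0.71 and -0.74.

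Genes that act on NRF2 went in both directions. Of 15 partners and regulators, all tested, 10 were called higher and 4 lower with EP300 siRNA without H2O2 (7 and 4 with FPKM), and 7 higher and 5 lower with it, with medians of 0.21 and 0.13. Over all genes tested 30.1% were higher and 31.4% lower without H2O2, and 28.4% and 30.6% with it, so the counts of lower partners were near the background share. CUL3, the scaffold of the ligase that KEAP1 serves, fell by 0.83 and by 0.82 on the log2 scale without and with H2O2 (edgeR adjusted p = 2.91e-08 and 3.06e-08), and RBX1, its RING subunit, fell by 0.55 and by 0.42 (edgeR adjusted p = 0.00012 and 0.0011). DPP3, which can bind KEAP1, fell by 0.61 and by 0.36. Among the related factors NFE2L1 rose (0.90 and 0.85) and NFE2L3 fell (-0.59 and -0.88). GSK3B, a kinase that marks NRF2 for KEAP1-independent degradation, rose (0.89 and 0.83).

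MAFF and MAFK, small MAF partners of NRF2, rose by 0.65 and 0.50 without and by 0.68 and 0.54 with H2O2. SQSTM1, the autophagy receptor that sequesters KEAP1, rose by 0.45 and 0.67. MAFF was also called higher with H2O2 itself, by 0.88 with control and 0.91 with EP300 siRNA (edgeR adjusted p = 1.68e-07 and 1.17e-07), and its level went from 43.9 ± 2.61 CPM in siNC to 129 ± 10.2 CPM in siEP300.H2O2 (SD, n = 3). SQSTM1 rose with H2O2 by 0.38 and 0.60. BACH1, the repressor that competes with NRF2 at HMOX1, had log2 fold changes of -0.18 with EP300 siRNA without H2O2 (edgeR adjusted p = 0.098) and of -0.27 with it, the latter called lower (edgeR adjusted p = 0.019).

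Other NRF2 targets went in both directions. Of 31 listed, 29 were tested, and with EP300 siRNA 13 were called higher and 8 lower without H2O2 and 12 and 9 with it; over all genes the shares were 30.1% higher and 31.4% lower, and 28.4% and 30.6%. Their medians were 0.14 and 0.07. The largest rise was that of the cystine importer SLC7A11 (log2 fold change 2.46 and 1.66), and FTL, the ferritin light chain (0.86 and 0.79), and MGST1, a microsomal glutathione transferase (0.70 and 0.35), rose. FTH1, the ferritin heavy chain, fell (-0.37 and -0.57); both ferritin genes have processed copies in the genome that could share reads. In glutathione metabolism the modifier subunit of glutamate-cysteine ligase, GCLM, rose (0.77 and 0.65), and its catalytic subunit GCLC (-0.59 and -0.44) and glutathione reductase GSR (-0.71 and -0.74) fell. AKR1C3 fell by 1.19 and by 0.66 and AKR1C1 rose by 0.88 and 0.89, but genes of this family are similar and may share reads. In the interaction SLC7A11 (-0.80, edgeR adjusted p = 0.022) and MGST1 (-0.35, edgeR adjusted p = 0.037) passed, both with a smaller rise in H2O2-treated cells. With H2O2 alone 4 of the 29 were called higher and 9 lower with control siRNA, beside 17.8% and 17.4% of all genes tested, and 2 and 11 with EP300 siRNA, beside 15.9% and 15.1%. The counts of higher targets were thus at or below the background share, and those of lower targets were above it. The list was chosen with earlier results of these data known, so its counts are a description. With FPKM (pseudocount 1) the counts were 1 higher and 13 lower with control siRNA and 0 and 12 with EP300 siRNA.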

How the data were processed

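The authors deposited estimated counts per gene symbol, not scaled between libraries, and FPKM (scaled to gene length and library size) of the same 17197 symbols in 12 libraries. HISAT and Bowtie2 with GRCh38.p13 were used, per the submitters' processing notes; for the counting program, annotation, strand setting and versions: not given in the sources used here. Estimated counts (12.0% to 13.8% of them not whole) were rounded. edgeR 4.0.16 in R 4.3.3 fitted 1 mean per group to all 12 libraries (TMM scaling, filterByExpr, quasi-likelihood test, two-sided), with Benjamini-Hochberg adjustment over the 13171 genes tested and a threshold of 0.05. CPM are relative to the TMM-scaled total; standard errors come from the F statistic. FPKM were compared between genes and, as an alternative, tested with limma 3.58.1 on log2(FPKM + 1) or log2(FPKM + 0.1). DESeq2 1.42.0, other scaling factors, no filter, the within-group axis as covariate, only the groups compared and leaving out libraries were the other alternatives. The edgeR test was tested on simulated data with the same dispersion for every gene and no within-group axis, so that axis was not covered. Replicate pairs differed by more than sampling noise (chi-square per degree of freedom 1.81 to 18.9). The members and lists were chosen with earlier results of these data known. Named genes are the members, EP300 and MLF1, from each list up to 5 genes of smallest adjusted p and those whose role bears on a member, and the nearest profiles (up to 3 for each member, with symbols of pseudogenes, antisense and noncoding genes left out).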

Additional observations from a re-analysis of the deposited data

How the results depend on the processing

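No paired analysis was possible because the titles number the libraries from 1 to 12 and no replicate number is shared between groups. Of the 189 member values recomputed for each comparison of 2 groups (21 alternatives), 185 kept their sign and their side of the threshold for EP300 siRNA without H2O2 and 185 with it; these numbers were 154 for H2O2 with control siRNA, 172 for H2O2 with EP300 siRNA and 167 of 180 for the interaction. Every value that changed sign was called neither as reported nor in the alternative. For EP300 siRNA the only call lost was TXN with H2O2, without library 11. Upper-quartile scaling put NFE2L2 with EP300 siRNA without H2O2 at -0.0303, HMOX1 with EP300 siRNA with H2O2 at -0.0037, NQO1 with H2O2 at -0.0543 (control siRNA) and -0.0207 (EP300 siRNA) and TXNRD1 with H2O2 and EP300 siRNA at -0.0088. FPKM with a pseudocount of 1 and 0.1 put NFE2L2 at -0.0357 and -0.0362, NQO1 at -0.077 and -0.0778 (control siRNA) and -0.0214 and -0.0215 (EP300 siRNA), and TXNRD1 at -0.006 in both. Without libraries 1 and 7, NQO1 with H2O2 and control siRNA was at -0.0943 and the interaction of HMOX1 at 0.0518. The cause of these shifts was not tested.

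Leaving out 1 library gave -0.0076 to 0.0731 for NFE2L2 (EP300 siRNA without H2O2) and -0.0591 to 0.0838 for HMOX1 (EP300 siRNA with H2O2). For H2O2 with control siRNA it gave -0.088 to 0.0101 for KEAP1, -0.0581 to 0.0513 for NQO1 and -0.0923 to 0.0527 for HMOX1. For H2O2 with EP300 siRNA it gave -0.0188 to 0.039 for NQO1 and -0.0065 to 0.0622 for TXNRD1, and for the interaction -0.0415 to 0.07 for NQO1 and -0.1393 to 0.0077 for HMOX1. Members called higher for H2O2 with control siRNA numbered 1 with upper-quartile scaling and with either FPKM pseudocount, 2 without libraries 1 and 7, 2 with only the groups compared, and 1 to 4 when 1 library was left out; 0 to 1 were then called lower. For H2O2 with EP300 siRNA, 2 were called higher with the axis as covariate, 1 without libraries 1 and 7, 1 with only the groups compared and 0 to 2 with 1 library left out. In the interaction 2 members were called lower with the axis, 2 without libraries 1 and 7, and 0 to 1 with 1 library left out. Over all genes the interaction had 325 and 265 higher calls with FPKM (pseudocount 1 and 0.1), 687 higher and 1042 lower with the axis, 767 and 1229 without libraries 1 and 7, and 59 to 258 higher and 137 to 459 lower with 1 library left out. The axis as covariate takes up spread within groups, so added calls with it are built into that fit. With 66 to 91 counts per siNC library, depth limits OSGIN1 most.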

Other observations

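Genes that are not regarded as core NRF2 targets were measured beside the members. These were relatives of the members and TXNIP, which inhibits thioredoxin. Of 9 such genes, all tested, 2 were called higher and 6 lower with EP300 siRNA without H2O2, and 2 higher and 4 lower with it, with medians of -0.36 and -0.07. Among all genes tested the shares were 30.1% higher and 31.4% lower without H2O2, and 28.4% and 30.6% with it. The other thioredoxin reductases did not follow TXNRD1: TXNRD3 fell by 1.23 and by 1.00 on the log2 scale without and with H2O2 (edgeR adjusted p = 3.09e-06 and 6.45e-05), and the mitochondrial TXNRD2 fell by 0.36 without H2O2 (edgeR adjusted p = 0.0049) and was at -0.03 with it (edgeR adjusted p = 0.83). Mitochondrial thioredoxin TXN2 fell by 0.46 and by 0.39, against the rises of TXN.

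Among malic enzymes the mitochondrial ME2 rose by 0.59 and 0.30, and ME3 fell by 0.79 and by 0.56. The constitutive haem oxygenase HMOX2 fell by 0.38 and by 0.26 with EP300 siRNA and rose with H2O2 by 0.25 with control and 0.37 with EP300 siRNA. NQO2, the relative of NQO1, was at -0.07 and 0.05 with EP300 siRNA, neither called, and fell with H2O2 by 0.46 and by 0.34. OSGIN2 rose by 0.28 and 0.25 with EP300 siRNA. TXNIP, the inhibitor of thioredoxin, fell by 0.27 without H2O2 and was at -0.07 with it (edgeR adjusted p = 0.285). None of these 9 genes passed in the interaction with edgeR (2 higher and 1 lower at an unadjusted p under 0.05, 0 with DESeq2). The list was chosen with earlier results of these data known, so its counts are a description.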
